A study of Homo sapiens with 12 samples.

Results

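Non-homologous end joining is the repair route that ligates the ends of a DNA double-strand break directly, and its genes were followed here in human bronchial epithelial cells carrying 3 forms of the receptor EGFR at 2 oxygen levels. The set was 10 genes taken by symbol (XRCC6, XRCC5, PRKDC, DCLRE1C, XRCC4, LIG4, NHEJ1, POLL, POLM and TP53BP1), and every array probe annotated to them was taken, 18 of 47323 probes in all. Of these, 13 probes of 8 genes were above background on at least 2 of 12 arrays and entered the tests, among 21237 such probes. The members were not picked by a cut on any measured value, though earlier results of these data were known.

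In this route the Ku heterodimer, made of the XRCC6 and XRCC5 products, slides onto a broken end and recruits the catalytic subunit of the DNA-dependent protein kinase, the PRKDC product. Artemis (DCLRE1C) trims hairpins and overhangs, the polymerases lambda and mu (POLL, POLM) fill gaps, and DNA ligase IV (LIG4) seals the break together with its partners XRCC4 and XLF (NHEJ1), while 53BP1 (TP53BP1) shields ends from resection. The route works outside S phase as well as within it, and in epithelial cells it is a main route for breaks made by ionizing radiation.

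The cells were HBEC, a human bronchial epithelial type grown without serum with EGF and bovine pituitary extract, that stably expressed wild-type EGFR (WT), the kinase-domain substitution L858R, or E746-E750, which the labels name only by a range of residues in the same domain. Cells of each line stayed aerobic (21% oxygen) or hypoxic (0.1% oxygen) for 24 h, giving 6 groups of 2 arrays, all on 1 slide, and the study's design concerns how EGFR form and hypoxia bear on break repair. Whether paired samples were separate cultures, and how many clones a line held, is not stated in the labels. Each p-value therefore covers no more than the spread between arrays of a group, which may be technical, and the number of arrays limits the precision. In bulk RNA, fewer cells of a type and less RNA per cell cannot be told apart.

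One array stood apart, also in signal. L858R hypoxic replicate 2 had an upper quartile of raw intensity of 128, while the other 11 lay at 157 to 207, and 14161 probes above background, while the others had 16534 to 18171. It correlated with its partner at 0.849 over the kept probes, while the other 5 pairs correlated at 0.983 to 0.997, and 26.5% of kept probes differed by more than 1 on the log2 scale between those 2 arrays against at most 1.98% in any other pair. Of the 13 member probes, 6 differed by more than 1 between them. All groups share 1 estimate of the spread, so this array widens the error of every comparison for the probes in which it parts from its partner, and the members' main results are given with and without it. A second property set the mutant hypoxic arrays apart. The 2 brightest probes of a gene, followed for 3213 genes, drew apart by more than 1 from their aerobic distance in at most 0.0311% of genes on any aerobic array, a share kept low by the aerobic arrays being their own baseline. Under hypoxia this share was 2.71% and 3.11% in WT, 18% and 45.8% in L858R, and 20.2% and 27.3% in E746-E750. Its part in the results was not tested. The labelled cell type was checked against markers: all 5 airway basal genes with a probe (KRT5, KRT14, ITGA6, LAMB3, DSG3) were above background on all 12 arrays, while PTPRC and CD3D of leukocytes and FOXJ1 and DNAI1 of ciliated cells were above it on 0. The third ciliated gene on the list, TUBB4B, was above background on all 12 arrays. CD14 was above background on 12 arrays, ITGAM on 5, none of 4 endothelial genes on 2 or more, and of mesenchymal genes DCN on 0, COL1A1 and PDGFRB on 2 and COL1A2 on 3. The hypoxic condition was visible in 9 of 9 measured hypoxia targets, which passed the test upwards in every line with a median log2 difference of 2.58 in WT, 2.74 in L858R and 2.94 in E746-E750.

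All values below are normalized log2 intensities, and a level is compared only within 1 probe, since brightness differs between probes for reasons other than RNA amount. A probe counted as above background when it exceeded percentile 99 of the array's noise. The single probes of XRCC4 and NHEJ1, 2 of 3 LIG4 probes and 1 of 3 DCLRE1C probes were above background on 0 arrays, so the ligase partners XRCC4 and NHEJ1 could not be followed. The XRCC4 probe lay between 6.01 and 6.29 on all arrays. XRCC6 probe ILMN_2166506, PRKDC probe ILMN_1769517, DCLRE1C probe ILMN_2321931 and POLM were above background on all 12 arrays, and XRCC5, TP53BP1, LIG4 and the second XRCC6 probe on 11.

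**Figure D1:**
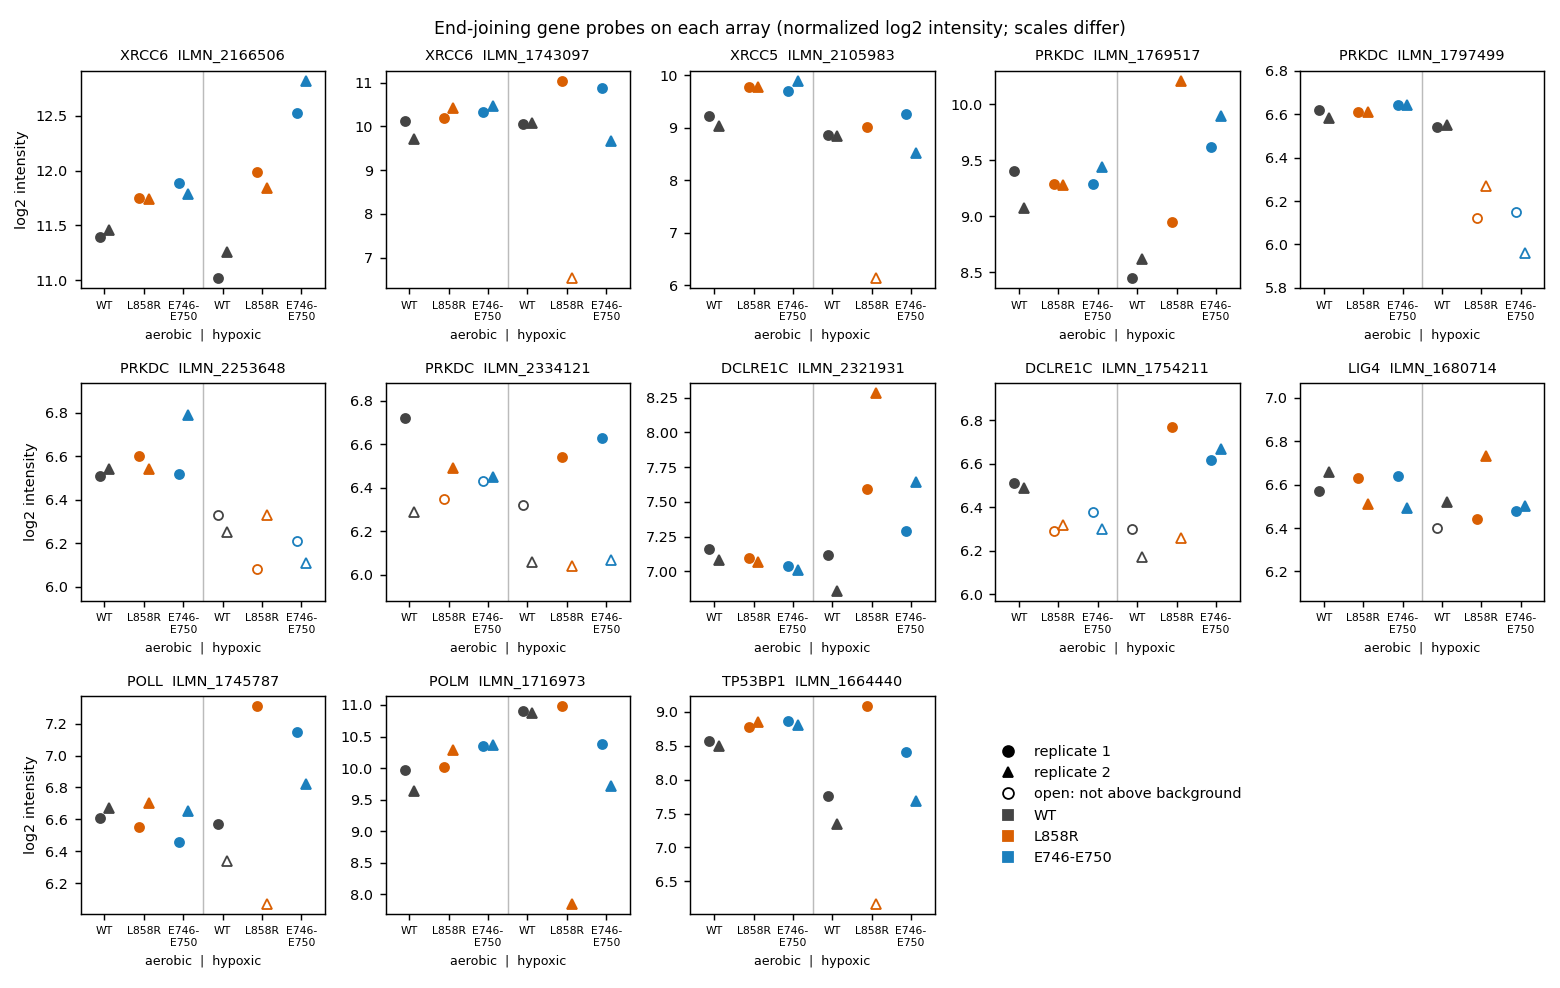
Normalized log2 intensity (vertical axis, a scale of its own in each panel) of the 13 tested probes of end-joining genes on each of 12 arrays, by EGFR form and oxygen level; circles are replicate 1, triangles replicate 2, and open symbols are readings not above background. The 2 readings of a group lie close together in the aerobic groups, while L858R hypoxic replicate 2 (orange triangle, right) is far from its partner for XRCC5, TP53BP1, POLM and the second XRCC6 probe.

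The promoters of 3 members are shown because each gene had a single RefSeq promoter (build GRCh38.p14) and a hypoxia difference past the test in at least 1 of the 3 fits given below: XRCC6 with all arrays, TP53BP1 and POLM only in the fits that lack L858R hypoxic replicate 2. Each is the 250 bases before the annotated start, 5′ to 3′ on the gene's strand: XRCC6 at chr22:41621045-41621294 on the plus strand, TP53BP1 at chr15:43510641-43510890 on the minus strand and POLM at chr7:44082531-44082780 on the minus strand. Capitals mark matches to ACGTG or GCGTG, the core letters bound by hypoxia-inducible factors, on either strand, so that an opposite-strand match reads CACGT or CACGC.
XRCC6: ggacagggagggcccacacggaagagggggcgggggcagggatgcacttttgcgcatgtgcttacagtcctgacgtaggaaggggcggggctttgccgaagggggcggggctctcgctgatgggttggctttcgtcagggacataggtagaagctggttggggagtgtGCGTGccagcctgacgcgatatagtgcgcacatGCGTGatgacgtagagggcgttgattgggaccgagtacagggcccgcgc
TP53BP1: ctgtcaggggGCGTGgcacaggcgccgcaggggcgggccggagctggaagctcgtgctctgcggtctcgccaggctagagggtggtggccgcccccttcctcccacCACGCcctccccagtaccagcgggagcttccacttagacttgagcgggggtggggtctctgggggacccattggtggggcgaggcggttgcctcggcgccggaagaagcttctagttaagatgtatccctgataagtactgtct
POLM: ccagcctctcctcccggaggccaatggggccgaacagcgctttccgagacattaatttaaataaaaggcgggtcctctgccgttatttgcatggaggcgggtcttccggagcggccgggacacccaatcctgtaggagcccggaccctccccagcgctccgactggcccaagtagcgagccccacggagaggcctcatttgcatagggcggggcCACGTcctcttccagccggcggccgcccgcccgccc
XRCC6 and TP53BP1 held 2 GCGTG matches each and POLM 1 ACGTG match. These letters are common: over 35116 promoters of the same window, 18.5% held ACGTG, 32.2% held GCGTG and 43.2% held either. A match is a description of the letters and not a bound site. Of the 10 members, 8 had a promoter in the table.

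The member probes that passed for hypoxia were not the same in the 3 lines, and few passed while the array that stood apart was in the fit. With all 12 arrays, 0 of 13 member probes passed in WT (10.2% of all kept probes did), 2 in L858R (27.3% of all) and 3 in E746-E750 (26.1% of all), by limma with Benjamini-Hochberg adjustment over all kept probes and a threshold of 0.05. In WT the count at an unadjusted p under 0.05 was also 0. Over all lines together 2 passed, against 33.3% of all probes. Without L858R hypoxic replicate 2 the counts were 3 in WT (32.8% of all), 7 in L858R (40.9%), 9 in E746-E750 (53.9%) and 4 over all lines (43%). That fit was chosen after the array was seen to stand apart. It takes the spread of the lone L858R hypoxic array from the other groups. With the 8 aerobic and WT hypoxic arrays alone, a fit chosen after seeing the data, 5 passed in WT against 39.4% of all. These counts lie in the range of the shares over all probes and are no result about end joining as a set. The median over the 13 probes in WT was -0.23, beside 0.00 over all kept probes, and 9 of 13 were lower on both hypoxic than on both aerobic WT arrays, which 34.4% of all probes were. These 9 probes belong to 7 genes and several lie near background, so this too is no result about the set.

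**Figure D2:**
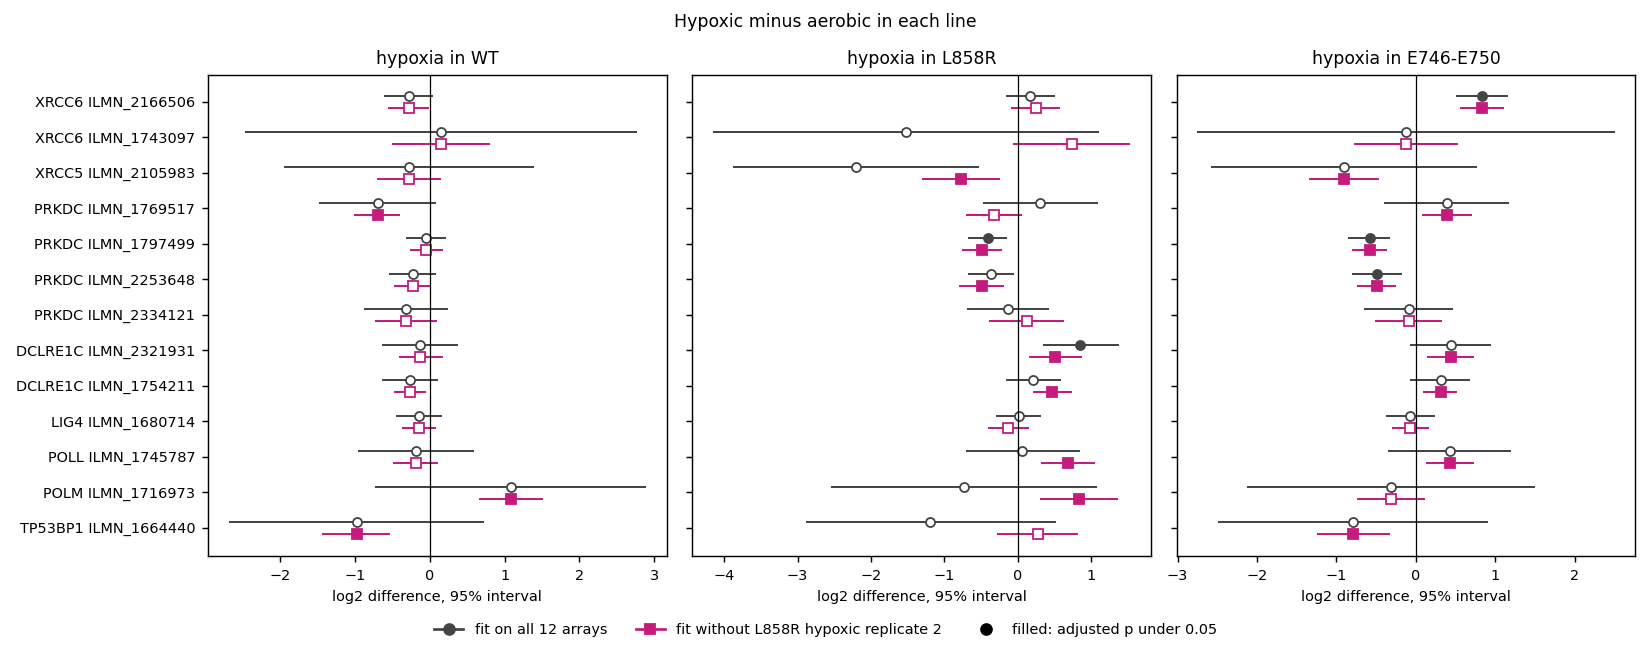
Hypoxic minus aerobic log2 difference (horizontal axis, with its 95% interval) of each tested probe in the 3 lines; grey circles are from all 12 arrays, pink squares from the fit without L858R hypoxic replicate 2, and filled symbols passed an adjusted p of 0.05. The intervals of XRCC5, TP53BP1, POLM and the second XRCC6 probe narrow once that array is left out, and XRCC6 probe ILMN_2166506 in E746-E750 is filled in both fits.

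XRCC6 (Ku70), one of the 2 Ku subunits, gave the difference that held in most settings. Probe ILMN_2166506 read 11.39 and 11.46 in WT aerobic, 11.75 and 11.74 in L858R aerobic, 11.89 and 11.79 in E746-E750 aerobic, 11.02 and 11.26 in WT hypoxic, 11.99 and 11.84 in L858R hypoxic, and 12.52 and 12.82 in E746-E750 hypoxic. Both hypoxic E746-E750 arrays were above every other array, and both hypoxic WT arrays were below every other array. The hypoxic minus aerobic difference was 0.83 ± 0.14 (SE, n = 2 per group) in E746-E750, a rise of 1.78-fold with a limma adjusted p of 0.00351, and -0.28 ± 0.14 in WT with an adjusted p of 0.304. In the 8 arrays alone the WT difference of -0.28 ± 0.10 passed, with an adjusted p of 0.0493. In L858R it was 0.17 ± 0.14 with an adjusted p of 0.404. The E746-E750 response exceeded the WT response by 1.11 ± 0.20 with an adjusted p of 0.0118, a call lost without WT aerobic replicate 2, E746-E750 aerobic replicate 2 or E746-E750 hypoxic replicate 2 (adjusted p 0.0522 to 0.0614). Under hypoxia E746-E750 was above WT by 1.53 ± 0.14, or 2.88-fold, with an adjusted p of 0.000229, and L858R was above WT by 0.78 ± 0.14, or 1.71-fold, with an adjusted p of 0.00664 that was 0.05 without WT hypoxic replicate 1. The E746-E750 rise and its excess over WT under hypoxia passed under every alternative run for them.

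The second XRCC6 probe did not follow. ILMN_1743097 read 10.12 and 9.72 in WT aerobic, 10.20 and 10.43 in L858R aerobic, 10.33 and 10.46 in E746-E750 aerobic, 10.05 and 10.08 in WT hypoxic, 11.05 and 6.53 in L858R hypoxic, and 10.87 and 9.67 in E746-E750 hypoxic. The low L858R reading was not above background, and the 2 hypoxic E746-E750 readings lie on either side of the aerobic ones. Its hypoxia difference in E746-E750 was -0.13 ± 1.15 with all arrays and -0.13 ± 0.29 without L858R hypoxic replicate 2, neither past the test. The distance between the 2 probes was 0.94 to 1.74 on 10 arrays, 3.14 on E746-E750 hypoxic replicate 2 and 5.31 on L858R hypoxic replicate 2. The XRCC6 rise in E746-E750 therefore rests on 1 of 2 probes, and why they part was not tested.

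**Figure D3:**
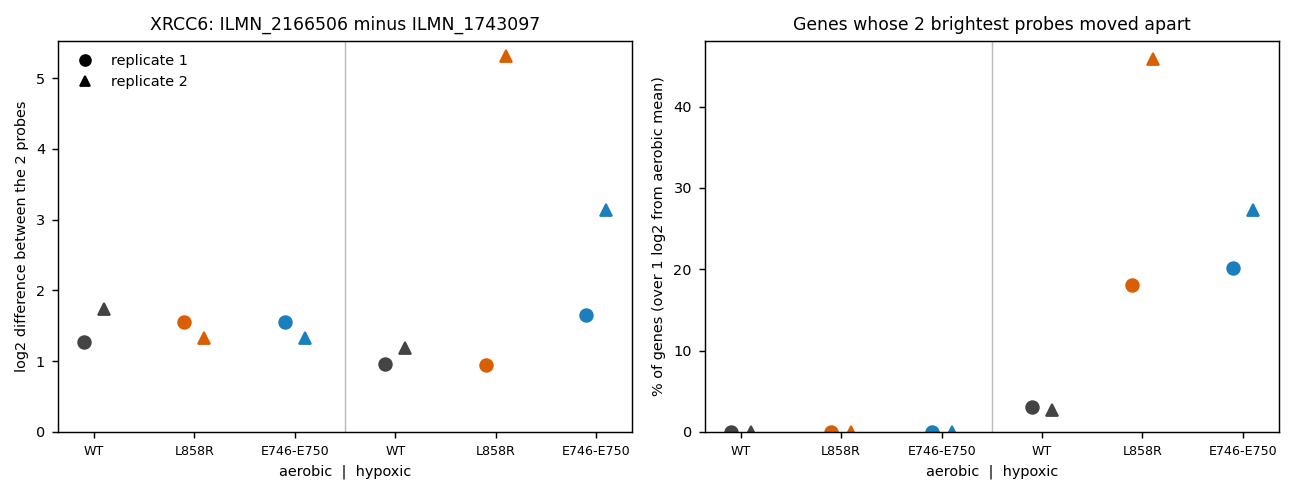
Left, log2 distance between the 2 XRCC6 probes on each array; right, the percentage of 3213 genes whose 2 brightest probes moved apart by more than 1 log2 from their mean aerobic distance; colours as for the lines (grey WT, orange L858R, blue E746-E750). The XRCC6 distance stays between 0.94 and 1.74 except on the second replicates of the 2 mutant hypoxic groups, and the share of genes is 18% to 45.8% on the 4 mutant hypoxic arrays and 3.11% or less on the others.

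XRCC5 (Ku80), the other Ku subunit, read higher in both mutant lines than in WT under aerobic conditions and lower under hypoxia. Of the 3 fits, the aerobic differences passed only in the 8-array one chosen after seeing the data, with adjusted p of 1 and 1 with all arrays and 0.112 and 0.0711 without L858R hypoxic replicate 2, for L858R and E746-E750. Its probe ILMN_2105983 read 9.23 and 9.04 in WT aerobic, 9.77 and 9.77 in L858R aerobic, 9.70 and 9.90 in E746-E750 aerobic, 8.86 and 8.85 in WT hypoxic, 9.01 and 6.14 in L858R hypoxic, and 9.27 and 8.52 in E746-E750 hypoxic. In every line both hypoxic arrays were below both aerobic arrays, and the 6.14 reading was not above background. With all arrays no difference passed; the hypoxia difference in L858R, -2.20 ± 0.73, had an adjusted p of 0.0556. With L858R hypoxic replicate 2 left out, XRCC5 fell by 0.90 in E746-E750 (SE 0.20, adjusted p 0.00256) and by 0.77 in L858R (SE 0.24, adjusted p 0.0247), while the WT difference of -0.28 ± 0.20 did not pass (adjusted p 0.325). The response did not differ between lines past the test in that fit, with -0.62 ± 0.28 for E746-E750 against WT (adjusted p 0.105).

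PRKDC, the catalytic subunit of the DNA-dependent protein kinase, was lower in hypoxic WT cells and not in hypoxic E746-E750 cells by its brightest probe. ILMN_1769517 read 9.40 and 9.07 in WT aerobic, 9.29 and 9.28 in L858R aerobic, 9.29 and 9.44 in E746-E750 aerobic, 8.45 and 8.62 in WT hypoxic, 8.95 and 10.21 in L858R hypoxic, and 9.62 and 9.89 in E746-E750 hypoxic. The 2 WT hypoxic arrays were the lowest of all, and both E746-E750 hypoxic arrays were above all aerobic ones. The 2 L858R hypoxic readings lie on either side of the aerobic range. With all arrays the WT difference was -0.70 ± 0.34 (adjusted p 0.283); without L858R hypoxic replicate 2 it was -0.70 ± 0.14 (adjusted p 0.00265), a fall of 1.63-fold, and in E746-E750 it was 0.39 ± 0.14 (adjusted p 0.0354). The response of E746-E750 minus that of WT was 1.09 ± 0.49 with all arrays (adjusted p 0.233) and 1.09 ± 0.20 without that array (adjusted p 0.00167). Under hypoxia E746-E750 exceeded WT by 1.22 ± 0.34, or 2.33-fold, with an adjusted p of 0.0402 with all arrays, a call lost without any 1 of the 10 arrays outside the L858R hypoxic pair (adjusted p 0.0648 to 0.221).

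The other 3 PRKDC probes were close to background and 2 of them went the other way in the mutant lines. ILMN_1797499 read 6.62 and 6.58 in WT aerobic, 6.61 and 6.61 in L858R aerobic, 6.64 and 6.64 in E746-E750 aerobic, 6.54 and 6.55 in WT hypoxic, 6.12 and 6.27 in L858R hypoxic, and 6.15 and 5.96 in E746-E750 hypoxic. The 4 mutant hypoxic readings were the lowest and the only ones not above background. This probe fell in hypoxic E746-E750 cells by 0.58 (SE 0.12, adjusted p 0.00679), at least 1.15-fold, a call lost without E746-E750 hypoxic replicate 2 (adjusted p 0.0611), and in hypoxic L858R cells by 0.41 (SE 0.12, adjusted p 0.0295), at least 1.05-fold. The L858R call was lost without any 1 of the 6 aerobic arrays (adjusted p 0.0548 to 0.138). Such a bound sets the brighter group against the lowest signal above background. ILMN_2253648 read 6.51 to 6.79 on the 6 aerobic arrays and 6.08 to 6.33 on the 6 hypoxic ones, where it was not above background. It fell in E746-E750 by 0.49 (SE 0.14, adjusted p 0.0311), at least 1.17-fold, and over all lines by 0.36 (SE 0.09, adjusted p 0.00907). The first of these calls was lost without any 1 of 7 arrays (adjusted p 0.0576 to 0.209), while the second passed under every alternative run for it. ILMN_2253648 entered the tests through its aerobic arrays alone, so its falls under hypoxia are not independent of the filter. ILMN_2334121 read 6.04 to 6.72 and was above background on 5 arrays, and its differences did not pass in any fit. The place of each probe on the transcript was not analysed here, so which of the 4 follows the full transcript cannot be told.

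The gene beside PRKDC in the RefSeq gene table, MCM4, a subunit of the replicative helicase, was added after its values had been seen. Its probe ILMN_1737205 read 9.14 and 8.92 in WT aerobic, 10.32 and 10.13 in L858R aerobic, 10.55 and 10.69 in E746-E750 aerobic, 8.39 and 8.43 in WT hypoxic, 7.74 and 8.25 in L858R hypoxic, and 8.20 and 8.18 in E746-E750 hypoxic. MCM4 fell under hypoxia by 2.43 in E746-E750 (adjusted p 4.12e-05) and by 2.23 in L858R (adjusted p 7.61e-05), the lines in which the PRKDC probe ILMN_1769517 gave 0.39 and 0.30. The PRKDC probes ILMN_1797499 and ILMN_2253648 had differences below 0 in these lines, as MCM4 did. In WT the MCM4 difference was -0.62 (adjusted p 0.0639), beside -0.70 for PRKDC ILMN_1769517. Under aerobic conditions MCM4 was above WT by 1.59 in E746-E750 (adjusted p 0.0244), where this PRKDC probe differed by 0.13.

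DCLRE1C (Artemis), the end-processing nuclease activated by the PRKDC kinase, was higher in hypoxic mutant cells by its brightest probe. Probe ILMN_2321931 read 7.16 and 7.08 in WT aerobic, 7.10 and 7.07 in L858R aerobic, 7.04 and 7.01 in E746-E750 aerobic, 7.12 and 6.86 in WT hypoxic, 7.59 and 8.28 in L858R hypoxic, and 7.29 and 7.64 in E746-E750 hypoxic. The 4 mutant hypoxic arrays were above the other 8. It rose in L858R by 0.85 ± 0.22, or 1.81-fold (adjusted p 0.023), and under hypoxia L858R exceeded WT by 0.95 ± 0.22, or 1.93-fold (adjusted p 0.0189). The former call was lost without either L858R aerobic array (adjusted p 0.102 and 0.115) and the latter without either WT hypoxic array (adjusted p 0.0501 and 0.128). In E746-E750 the difference was 0.44 ± 0.22 with all arrays (adjusted p 0.197) and 0.44 ± 0.13 without L858R hypoxic replicate 2 (adjusted p 0.0167), where the L858R rise was 0.51 ± 0.16 (adjusted p 0.0279). Probe ILMN_1754211, closer to background and above background on 5 arrays, read 6.77 and 6.26 in L858R hypoxic, 6.62 and 6.67 in E746-E750 hypoxic, 6.30 and 6.17 in WT hypoxic and 6.29 to 6.51 on the aerobic arrays. The 6.26 reading was not above background, on the array where ILMN_2321931 read its highest, 8.28. The distance between the 2 probes was 2.02 on that array and 0.59 to 0.97 on the others. In the fit that omits L858R hypoxic replicate 2, both DCLRE1C probes had a response above that of WT, by 0.73 ± 0.15 (adjusted p 0.00547) and 0.64 ± 0.21 (adjusted p 0.0479) in L858R and by 0.57 ± 0.14 (adjusted p 0.00802) and 0.56 ± 0.19 (adjusted p 0.0381) in E746-E750, ILMN_1754211 first. With all arrays none of these 4 passed. ILMN_1754211 was above background only on the WT aerobic arrays, L858R hypoxic replicate 1 and the E746-E750 hypoxic arrays. These are the groups that raise a mutant response over that of WT. It entered the tests through them alone, so its response differences are not independent of the filter and add no separate support to ILMN_2321931.

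LIG4, the ligase that seals the break, had the narrowest range of readings among the 13 tested probes. Probe ILMN_1680714 read 6.57 and 6.66 in WT aerobic, 6.63 and 6.51 in L858R aerobic, 6.64 and 6.49 in E746-E750 aerobic, 6.40 and 6.52 in WT hypoxic, 6.44 and 6.73 in L858R hypoxic, and 6.48 and 6.50 in E746-E750 hypoxic. These readings span 6.40 to 6.73 and are close to background, where a log2 difference understates a change. The 95% interval of the hypoxia difference was -0.46 to 0.16 in WT, -0.30 to 0.32 in L858R and -0.38 to 0.24 in E746-E750 with all arrays, and no LIG4 difference passed in any of the 3 fits.

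POLM, the polymerase that can extend ends with little pairing, was higher in hypoxic WT cells. It read 9.97 and 9.64 in WT aerobic, 10.02 and 10.28 in L858R aerobic, 10.35 and 10.36 in E746-E750 aerobic, 10.90 and 10.87 in WT hypoxic, 10.98 and 7.85 in L858R hypoxic, and 10.38 and 9.71 in E746-E750 hypoxic. Both WT hypoxic arrays and the first L858R hypoxic array were the highest, the second L858R one the lowest, and the E746-E750 groups overlapped. The WT difference was 1.08 ± 0.79 with all arrays (adjusted p 0.526). It was 1.08 ± 0.19, a rise of 2.12-fold, without L858R hypoxic replicate 2 (adjusted p 0.00152) and 1.08 ± 0.12 in the 8 arrays alone (adjusted p 3.3e-05). In E746-E750 it was -0.31 ± 0.19 without that array (adjusted p 0.207), and the E746-E750 response was below the WT response by 1.39 (SE 0.28, adjusted p 0.00292). With all arrays this last difference was -1.39 ± 1.12 (adjusted p 0.545). In L858R the sign of POLM depended on 1 array: -0.73 ± 0.79 with both hypoxic replicates and 0.83 ± 0.24 with the first alone (adjusted p 0.017).

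POLL, the gap-filling polymerase lambda, was close to background on most arrays. It read 6.61 and 6.67 in WT aerobic, 6.55 and 6.70 in L858R aerobic, 6.46 and 6.65 in E746-E750 aerobic, 6.57 and 6.34 in WT hypoxic, 7.31 and 6.07 in L858R hypoxic, and 7.15 and 6.82 in E746-E750 hypoxic. The 3 mutant hypoxic readings other than L858R replicate 2 were the highest, and that array and WT hypoxic replicate 2 were not above background. No POLL difference passed with all arrays, and the hypoxia difference in L858R was then 0.06 ± 0.34. Leaving out L858R hypoxic replicate 2, the difference was 0.68 in L858R, on its 1 remaining hypoxic array. It was 0.43 in E746-E750 and -0.19 in WT.

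TP53BP1 (53BP1), which steers breaks towards end joining, was lower in hypoxic WT and E746-E750 cells. It read 8.57 and 8.49 in WT aerobic, 8.77 and 8.85 in L858R aerobic, 8.87 and 8.80 in E746-E750 aerobic, 7.76 and 7.34 in WT hypoxic, 9.08 and 6.17 in L858R hypoxic, and 8.41 and 7.69 in E746-E750 hypoxic. Hypoxic and aerobic readings did not overlap in WT or E746-E750, whereas the L858R hypoxic pair held both the highest and the lowest reading, the latter not above background. In WT the difference was -0.98 ± 0.74 with all arrays (adjusted p 0.545), -0.98 ± 0.20 without L858R hypoxic replicate 2 (adjusted p 0.00372) and -0.98 ± 0.13 in the 8 arrays alone (adjusted p 7.85e-05), a fall of 1.98-fold. In E746-E750 it was -0.79 ± 0.74 with all arrays (adjusted p 0.494) and -0.79 ± 0.20 without that array (adjusted p 0.00743). The 2 responses differed by 0.19 ± 0.29 (95% interval -0.45 to 0.84) in the latter fit.

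Between the lines at 21% oxygen, no member passed with all arrays. The counts were 0 of 13 for L858R against WT (0% of all probes), 0 for E746-E750 against WT (0.202%) and 0 for L858R against E746-E750 (0.0141%). At an unadjusted p under 0.05 the counts were 0, 1 and 0, the 1 being XRCC6 probe ILMN_2166506. Without L858R hypoxic replicate 2 they stayed at 0 (3.86%, 7.18% and 0.476% of all probes). In the 8 arrays alone, which leave out the mutant hypoxic groups, 1 passed for L858R against WT (7.99% of all) and 4 for E746-E750 against WT (12.9% of all). XRCC5 was higher than in WT by 0.64 ± 0.10, or 1.56-fold, in L858R (adjusted p 0.00387) and by 0.66 ± 0.10, or 1.58-fold, in E746-E750 (adjusted p 0.00185). In E746-E750 both XRCC6 probes were higher as well, ILMN_2166506 by 0.41 ± 0.10 (adjusted p 0.0239) and ILMN_1743097 by 0.48 ± 0.13 (adjusted p 0.0371), and so was POLM by 0.55 ± 0.12 (adjusted p 0.0141). For L858R the 2 XRCC6 probes gave 0.32 ± 0.10 (adjusted p 0.0908) and 0.39 ± 0.13 (adjusted p 0.105). All 3 Ku probes passed for E746-E750 in this fit and not in the other 2 fits given here.

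PRKDC, DCLRE1C, LIG4, POLL and TP53BP1 showed no aerobic difference past the test in any of the 3 fits. For PRKDC probe ILMN_1769517 the 95% interval in the 8 arrays was -0.22 to 0.31 for L858R and -0.14 to 0.39 for E746-E750 against WT. The 2 mutant lines did not differ from each other past the test for any member (0 of 13 in the 8 arrays, 1.15% of all probes), and XRCC5 differed between them by -0.02 with an interval of -0.25 to 0.21.

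**Figure D4:**
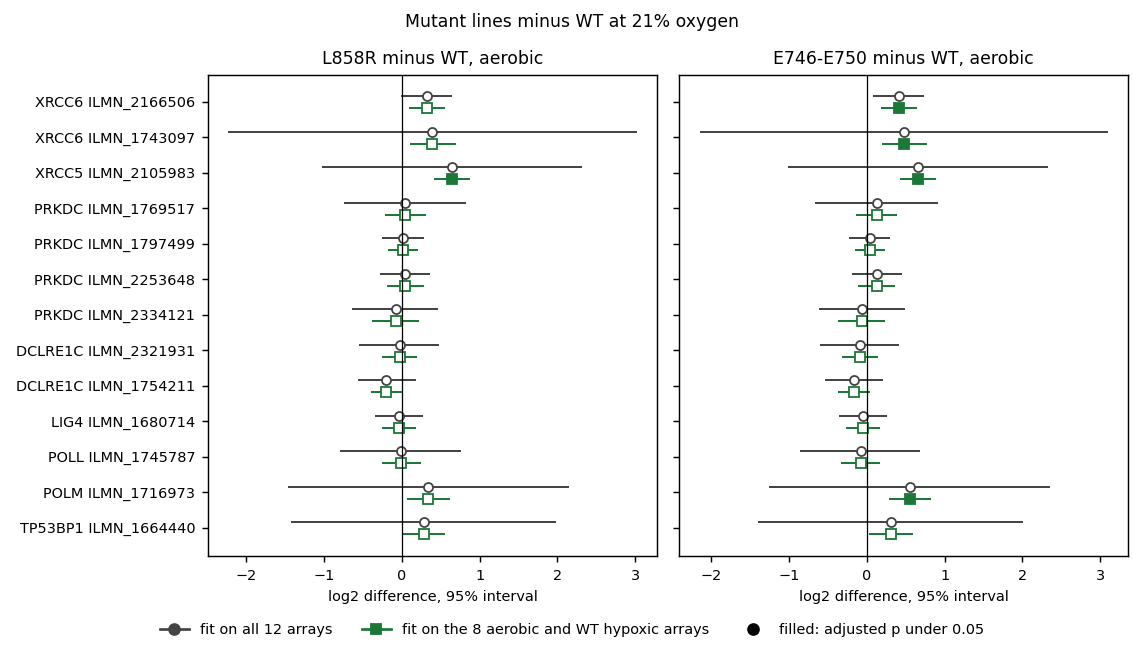
Mutant minus WT log2 difference at 21% oxygen (horizontal axis, with its 95% interval) of each tested probe for L858R and E746-E750; grey circles are from all 12 arrays, green squares from the 8 aerobic and WT hypoxic arrays, and filled symbols passed an adjusted p of 0.05. XRCC5 is filled in both panels of the 8-array fit, and both XRCC6 probes and POLM for E746-E750.

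Between the lines under hypoxia, 2 of 13 probes passed for L858R against WT (21.8% of all probes) and 3 for E746-E750 against WT (18.9% of all) with all arrays. They were XRCC6 ILMN_2166506 and DCLRE1C ILMN_2321931 upwards in L858R, and XRCC6 ILMN_2166506 and PRKDC ILMN_1769517 upwards with PRKDC ILMN_1797499 downwards in E746-E750, at least 1.08-fold (adjusted p 0.0202). The last call was lost without either WT hypoxic array or E746-E750 hypoxic replicate 2 (adjusted p 0.0853 to 0.156). Without L858R hypoxic replicate 2 the counts were 6 (34.5% of all) and 7 (47.9% of all). Added in E746-E750 were both DCLRE1C probes and POLL upwards and POLM downwards, by 0.84 (SE 0.19, adjusted p 0.00465). For L858R, TP53BP1 exceeded WT by 1.53 ± 0.25 (adjusted p 0.000886) on the first array, while with both arrays the difference was 0.08 ± 0.74 (adjusted p 0.953).

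As a test of whether the responses to hypoxia differ between lines, 0 of 13 passed for L858R against WT (9.17% of all probes; 1 at an unadjusted p under 0.05) and 1 for E746-E750 against WT (9.42% of all), XRCC6 ILMN_2166506. Without L858R hypoxic replicate 2 the counts were 4 (25.4% of all) and 7 (35.5% of all). The probes counted for L858R were both DCLRE1C probes, TP53BP1 with 1.25 ± 0.32 and POLL with 0.87 ± 0.22. They rest on 1 L858R hypoxic array, and DCLRE1C ILMN_1754211 carries the filter limit given above. With all arrays the TP53BP1 difference had the other sign, -0.20 ± 1.05 (limma adjusted p 0.926). For POLL it was then 0.25 ± 0.48 (adjusted p 0.783). The E746-E750 and L858R comparisons share the WT arrays, so their values are not independent.

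Related repair genes, grouped in lists of known roles, give the setting. The brightest kept probe stands for each listed gene, while the shares and medians set beside the lists are over all kept probes. Of accessory end-joining factors, 10 of 12 genes with a probe were kept; with all arrays 3 fell under hypoxia in WT, 0 passed in L858R and 2 fell in E746-E750, where 10.2%, 27.3% and 26.1% of all probes passed. The list's median difference was -0.43 in WT, 0.19 in L858R and 0.01 in E746-E750, beside 0.00, 0.05 and 0.06 over all. SETMAR, a methyltransferase fused to a transposase that aids end joining, fell by 1.36 in WT (adjusted p 0.0118) and 1.03 in E746-E750 (adjusted p 0.0183). APTX, which clears abortive ligation products, fell by 0.98 in WT (adjusted p 0.00741) and by 0.79 in E746-E750 (adjusted p 0.00849), and the helicase WRN fell by 0.98 in WT (adjusted p 0.032). SETMAR and APTX fell in all 3 lines without L858R hypoxic replicate 2. XRCC1, a scaffold of single-strand break repair, rose over all lines together by 0.56 (adjusted p 0.0114) and passed in no single line with all arrays.

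Of break-sensing genes and the 53BP1 pathway, 19 of 22 were kept, and 1 fell in WT, 2 rose and 3 fell in L858R, and 2 rose and 2 fell in E746-E750 with all arrays, against 10.2%, 27.3% and 26.1% of all probes. Its median difference was -0.16 in WT, -0.26 in L858R and -0.22 in E746-E750. H2AX, the histone variant marked at breaks, fell by 1.46 in L858R (adjusted p 0.000428), fell by 1.75 in E746-E750 (adjusted p 0.000148) and gave -0.33 in WT (adjusted p 0.29). RIF1, an effector of 53BP1, fell by 0.45 in L858R (adjusted p 0.0307) and 0.52 in E746-E750 (adjusted p 0.0164). MRE11, a nuclease of the break-sensing complex, fell by 0.65 in L858R (adjusted p 0.0455), a call lost without L858R hypoxic replicate 2 (-0.49, adjusted p 0.082). NBN, its partner, fell by 0.89 in WT (adjusted p 0.0251). ABRAXAS1, a scaffold of a BRCA1 complex, rose by 1.62 in L858R (adjusted p 0.0252) and by 1.57 in E746-E750 (adjusted p 0.0295). The ubiquitin ligase HERC2 rose by 0.86 (adjusted p 0.0475) and 0.96 (adjusted p 0.033) in the same lines, and the L858R call was lost without L858R hypoxic replicate 2 (0.43, adjusted p 0.101). SHLD1, a shieldin subunit, fell over all lines together by 0.30 (adjusted p 0.035) and passed in no single line with all arrays.

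Of end resection and alternative end joining, the competing routes, 10 of 11 genes were kept, and 2 fell in WT, 1 rose and 2 fell in L858R, and 1 fell in E746-E750 with all arrays, against 10.2%, 27.3% and 26.1% of all probes. The median difference was -0.05 in WT, 0.10 in L858R and 0.10 in E746-E750. PARP1, which senses breaks in the alternative route, fell in every line, by 1.36 in WT (adjusted p 0.00382), 1.17 in L858R (adjusted p 0.00326) and 0.82 in E746-E750 (adjusted p 0.0163). LIG3, the ligase of that route, fell by 1.23 in WT (adjusted p 0.0316), and without L858R hypoxic replicate 2 it fell in all 3 lines. FEN1, the flap nuclease, rose by 0.83 in L858R (adjusted p 0.0313). ERCC1, a subunit of a nuclease that cuts 3′ flaps, fell by 0.69 in L858R (adjusted p 0.039). Without L858R hypoxic replicate 2 these were 0.43 (adjusted p 0.0379) and -0.33 (adjusted p 0.0571), so the ERCC1 call was lost. POLQ, the polymerase of the alternative route, rose over all lines together by 0.60 (adjusted p 0.0211) and passed in no single line with all arrays.

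The genes most like XRCC5, XRCC6 and PRKDC by their brightest probes were ranked among 11910 genes by Pearson correlation over the 12 arrays. The ranking is a description without a test, since arrays of 1 group share their condition. For XRCC5 the leading genes were DYNC1I2 (0.989), CCT3 (0.980) and KRT7 (0.979). For XRCC6 ILMN_2166506 they were AAR2 (0.957), CENPP (0.956) and MIS18A (0.954), and for PRKDC ILMN_1769517 they were TCAM1P (0.959), PELP1 (0.954) and STOML2 (0.951). The first-ranked genes were NDUFA1 (0.958), PYHIN1 (0.987) and RGS19 (0.969) once L858R hypoxic replicate 2 was left out, so the neighbours in likeness depended on that array, and only DYNC1I2 of XRCC5 stood among the leading 3 both times.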

How the data were processed

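Biotinylated cRNA of 12 samples was hybridized to Illumina bead arrays, per the labels' protocols. The authors' deposited raw table holds linear intensity for 47323 probes without detection p-values; their deposited processed table holds log2 values, used as an alternative. Probe genes came from the platform annotation (30121 probes with a gene, 8 with several, 17202 with none). No sample column was left out.

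Intensities were background corrected with normexp (offset 50), quantile normalized and fitted with limma 3.58.1 in R 4.3.3 (lmFit, eBayes, 6 group means, two-sided). Detection used percentile 99 of each array's mirrored noise peak (bandwidth 0.02 log2), and probes detected on at least 2 arrays were kept. Benjamini-Hochberg adjustment ran over 21237 probes within each of 11 comparisons. The members, lists and tests were chosen with earlier results of these data known. All 10 members were named; from the lists, genes called in a hypoxia comparison. The model was tested on simulated data. Alternatives changed the background correction, normalization, filter, probe choice, eBayes options, samples, weights and block, or left out each array.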

Additional observations from a re-analysis of the deposited data

Results flagged for a closer look

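XRCC6 probe ILMN_2166506 is listed because its response to hypoxia differed between lines by a test of the difference itself: the E746-E750 response minus the WT response was 1.11 ± 0.20 on the log2 scale (limma adjusted p 0.0118 with all 12 arrays, 0.000818 without L858R hypoxic replicate 2). Both hypoxic E746-E750 arrays were above both aerobic ones and both hypoxic WT arrays below both aerobic ones. The other XRCC6 probe, ILMN_1743097, gave -0.27 ± 1.62 for the same difference with all 12 arrays. L858R hypoxic replicate 2 enters that SE and not the difference itself. For hypoxia in WT the SE of this probe was 1.15 with that array and 0.29 without it.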

How the results depend on the processing

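Over 23 alternatives, 12 of them leaving out 1 array, 0 of the 13 called member differences changed sign and 3 kept their call in all that were run for them: XRCC6 ILMN_2166506 under hypoxia in E746-E750 and between E746-E750 and WT under hypoxia, and PRKDC ILMN_2253648 over all lines. ILMN_2253648 was kept by the filter through its aerobic arrays alone, so its falls are not independent of that filter. Of 130 differences that were not called, 64 changed sign at least once. Counts of called member probes moved as follows, where the cause was not tested unless stated. For hypoxia in WT (0 of 13) the count was 3 with only the arrays compared, 4 with array weights and 5 in the 8 aerobic and WT hypoxic arrays, a setting added after seeing the data. For hypoxia in L858R (2) it was 1 with probes detected on all 12 arrays and with 1 probe per gene, settings that test fewer probes, and 0 with only the arrays compared and with array weights. For hypoxia in E746-E750 (3) it was 5 with median centring, 1 in both settings with fewer probes, 6 with only the arrays compared and 8 with array weights. Over all lines (2) it was 0 in both settings with fewer probes and 8 with array weights. For aerobic L858R against WT (0) it was 2 with only the arrays compared, 2 with array weights and 1 in the 8 arrays, and for aerobic E746-E750 against WT (0) it was 4, 2 and 4. For hypoxic L858R against WT (2) it was 4 with median centring, 0 with only the arrays compared and 0 with array weights, and for hypoxic E746-E750 against WT (3) it was 7 with array weights. For the L858R response against that of WT (0) it was 1 with median centring, and for the E746-E750 response (1) it was 3 with median centring and 7 with array weights.

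Leaving out 1 array gave 0 to 3 called probes for hypoxia in WT, 0 to 8 in L858R, 1 to 9 in E746-E750 and 1 to 4 over all lines, 0 to 0 in each aerobic comparison, 0 to 7 and 1 to 7 for L858R and E746-E750 against WT under hypoxia, and 0 to 6 and 0 to 7 for their responses against that of WT. Over all kept probes the called count for hypoxia in WT ranged from 725 to 6956, against 2156 with all arrays, and for hypoxia in L858R from 2737 to 14296, against 5798. The replicate number as a block changed the count by at most 1: hypoxia in L858R gave 3. Same-numbered arrays deviated together in 3 of 15 pairs of groups (correlation over 0.1, with a range of -0.174 to 0.758) and not in the others, so the numbers were not taken as pairs.

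Signal over background limits XRCC4 and NHEJ1, which were not measured, and LIG4, POLL and the other PRKDC probes, which lay near it.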
